A study of Saccharomyces cerevisiae with 12 samples.

Results

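The PIR family (proteins with internal repeats) was described in yeast cells that overexpressed the transcriptional repressor YOX1 under replication stress. Its 5 members, PIR1, HSP150 (also called PIR2), PIR3, CIS3 (PIR4) and YJL160C (PIR5 in the RefSeq annotation), were found by name among the 7126 genes of each deposited table. HSP150 was selected on its measured values, since it was among the genes that were lowest with the YOX1 vector relative to the control vector. By the size of the log2 decrease it had rank 64 at 2 h and rank 16 at 4 h among the 6887 genes tested. The genes tested include some without a completed estimate in some library, which were kept at 0. At 2 h 1 YOX1 vector library had 43 genes without a completed estimate, and the control vector libraries had 0 each. Some decreases larger than that of HSP150 may therefore stand for missing estimates, and the ranks of the 2 times are not compared. The other 4 members were taken because they belong to the same family. The YOX1 vector against control vector values at 2 h and 4 h are therefore given as a description, with no test of a member.

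PIR proteins are secreted mannoproteins of the yeast cell wall. They carry O-linked mannose, are cut by the Kex2 protease on their way out of the cell, and are held in the wall by alkali-sensitive bonds between glutamines of their repeats and beta-1,3-glucan. PIR1 and PIR3 are known as genes whose transcripts peak as cells pass from mitosis to G1, under the transcription factor Swi5 and the cell wall integrity pathway, whereas HSP150 was first known as a gene induced by heat. The related Yox1 and Yhp1 proteins are homeodomain repressors that bind beside Mcm1, a factor of the MADS-box class, at promoters of cell cycle genes.

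RNA was sequenced from 12 libraries, 2 for each combination of vector and time. The cells were wild type, of the BY4741 laboratory strain, and carried pBY011-YOX1, in which galactose drives YOX1 from the GAL1-10 promoter, or the empty pBY011 vector as a control. They were grown in raffinose medium lacking uracil and sampled untreated (0 h), and then at 2 h and 4 h in galactose with hydroxyurea (HU) at 200 mM, an inhibitor of ribonucleotide reductase. Both agents were added together, and the effects of galactose, HU and time cannot be told apart. At 2 h the YOX1 transcript itself was at 3312 to 3862 FPKM with the YOX1 vector, against 30.9 to 37.5 FPKM with the control vector. At 4 h it was at 2458 to 2599 FPKM with the YOX1 vector, against 40.7 to 40.8 FPKM with the control vector. In untreated cells it was already at 90.9 to 91.3 FPKM with the YOX1 vector, against 29.8 to 30.9 FPKM with the control vector. FPKM are fragments normalised for transcript length and for the mapped fragments of a library, so levels can be compared between genes of different length. Of the genes deleted in BY4741, LEU2 was listed at 0 in 12 of 12 libraries and MET17 reached at most 0.391 FPKM. BY4741 is of mating type a. The 5 a-cell genes read as markers ranged from 15.8 to 7224 FPKM and the 4 alpha-cell genes from 1.17 to 20.6 FPKM, with none at 0 in any library. At 4 h 4.31% of all genes tested were called lower with the YOX1 vector and 1.92% higher. Of the a-cell genes 2, for the pheromones MFA2 and MFA1, were then called lower and 2 higher. Of the alpha-cell genes 0 were called in limma and 1 had an unadjusted p under 0.05. The part of these marker genes in the results below was not tested. The tables give no read number. The depth implied by their intervals ranged from 9660000 to 18060000 fragments per library, and covers counting error only.

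The members lie in 2 clusters, in which all coordinates, counted from 1, were the same in the deposited tables (sacCer3) and in the R64 reference. On chromosome X, YJL160C (117962 to 118825, minus strand), HSP150 (120449 to 121690, plus strand) and CIS3 (122265 to 122948, minus strand) follow each other with no other gene between them. On chromosome XI, PIR1 (141794 to 142819, minus strand) and PIR3 (144401 to 145378, plus strand) are transcribed away from each other over a shared interval of 1581 bases. Each is a single open reading frame and none overlaps another annotated gene of the tables.

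The repeats that name the family are shown because they set the members apart and because near-identical repeats can share reads. The coding sequence was searched for the repeat core of 8 residues, glutamine, isoleucine or valine, any residue, aspartate, glycine, glutamine, isoleucine, leucine or valine, and glutamine. HSP150 held 11 such cores in 413 residues, PIR1 8 in 341, PIR3 8 in 325, YJL160C 4 in 287 and CIS3 1 in 227. A whole unit runs from the start of a core to the start of the next, and the units below are on the coding strand of sacCer3, with the aspartate, glycine and glutamine codons in capitals.
HSP150, unit 8, chrX:121139-121195, plus strand: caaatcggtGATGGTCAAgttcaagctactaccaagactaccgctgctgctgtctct
PIR1, unit 6, chrXI:142259-142315, minus strand: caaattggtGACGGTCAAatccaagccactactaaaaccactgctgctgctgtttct
PIR3, unit 3, chrXI:144743-144796, plus strand: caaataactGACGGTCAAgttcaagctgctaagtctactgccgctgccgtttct
CIS3, the only core, chrX:122721-122744, minus strand: caaattggtGACGGTCAAgtccaa
YJL160C, core 1, chrX:118604-118627, minus strand: caaattaatGACGGTCAAgtgcaa

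The HSP150 and PIR1 units encode 19 residues and the PIR3 unit 18. Identity was taken over the residues aligned in global alignments of the translated genes, with gaps left out. HSP150 and PIR1 were 84.7% identical, HSP150 and PIR3 79.7% and PIR1 and PIR3 77.7%. CIS3 and YJL160C were at most 65.5% identical to any other member. The reads were 50 bases long. Of all stretches of 50 bases in a member, those found only once in the genome made up 89.2% in PIR3, 92.6% in HSP150, 92.8% in PIR1, 97.5% in CIS3 and 100% in YJL160C. Most of each gene could therefore be told from its relatives by its reads. Copies within the same gene and copies elsewhere were counted alike, so sharing of reads between members was not measured.

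The question of the study that these libraries address is which transcripts change when YOX1 is overexpressed during HU stress. For the PIR family the answer differed from member to member. At 4 h HSP150, PIR3 and YJL160C were lower with the YOX1 vector, by 7.89-fold, 3.31-fold and 2.12-fold, CIS3 was lower by 1.42-fold, and PIR1 was lower by 1.09-fold, with libraries of both vectors that overlapped. Folds and log2 changes are on the scale of log2(FPKM + 1) after scaling between libraries, which understates changes of low genes such as YJL160C.

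HSP150 was the most abundant member in untreated cells. The untreated YOX1 vector libraries held 1599 and 2412 FPKM and the untreated control vector libraries 2539 and 2257 FPKM, so that the vectors overlapped and 1 YOX1 vector library lay well under the other 3. At 2 h the YOX1 vector libraries held 139 and 158 FPKM, against 828 and 764 FPKM in the control vector libraries, a log2 change of -2.45 with a standard error of 0.21. At 4 h they held 160 and 204 FPKM, against 1297 and 1487 FPKM, a log2 change of -2.98 with the same standard error. The vectors did not overlap at either treated time. In bulk cultures, fewer cells that transcribe a gene and less of its RNA per cell cannot be told apart.

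PIR3, which lies on another chromosome, followed the same order of groups at levels far lower. Untreated YOX1 vector libraries held 41.3 and 48.7 FPKM of PIR3 and untreated control vector libraries 49.6 and 43.3 FPKM. At 2 h the YOX1 vector libraries held 4.83 and 5.37 FPKM, against 9.98 and 8.15 FPKM with the control vector, a log2 change of -0.75 with a standard error of 0.18. At 4 h they held 5.84 and 7.52 FPKM, against 27.6 and 19.9 FPKM with the control vector, a log2 change of -1.73 with the same standard error. The vectors overlapped only in untreated cells. The 4 h change was -1.51 without the first control vector library of that time and -1.94 without the second, so its size depended on which of these libraries was used.

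PIR1, the neighbour of PIR3 on the other side of their shared upstream interval, hardly separated the vectors. In untreated cells the YOX1 vector libraries held 635 and 644 FPKM and the control vector libraries 635 and 588 FPKM. At 2 h it stood at 107 and 112 FPKM with the YOX1 vector, against 116 and 123 FPKM with the control vector. At 4 h it stood at 87.5 and 78.3 FPKM with the YOX1 vector, against 92.6 and 82.3 FPKM with the control vector. The log2 changes of -0.15 at 2 h and -0.12 at 4 h had a standard error of 0.08 each. The 4 h change was -0.21 without the first YOX1 vector library of that time and -0.025 without the second. At 2 h the libraries of the vectors did not overlap, though the gap was small, and at 4 h they did.

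CIS3 was the member with the steadiest level, between 597 and 1037 FPKM over the 12 libraries, a range of 1.74-fold against 18.2-fold for HSP150. In untreated cells the YOX1 vector libraries held 678 and 886 FPKM and the control vector libraries 929 and 834 FPKM. At 2 h it stood at 786 and 830 FPKM with the YOX1 vector, against 973 and 1037 FPKM with the control vector, a log2 change of -0.35 (SE 0.15). At 4 h it stood at 597 and 606 FPKM with the YOX1 vector, against 757 and 907 FPKM with the control vector, a log2 change of -0.51. The vectors overlapped only in untreated cells, where the lower YOX1 vector library was the one in which HSP150 was low.

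YJL160C, the member with no standard name in the tables, was the least abundant in all 12 libraries. In untreated cells the YOX1 vector libraries, at 2.59 and 2.79 FPKM, lay within the 3.002 and 2.33 FPKM of the control vector libraries. At 2 h it stood at 3.51 and 3.04 FPKM with the YOX1 vector, against 4.84 and 3.90 FPKM with the control vector, a log2 change of -0.35 (SE 0.20). At 4 h it stood at 1.98 and 2.09 FPKM with the YOX1 vector, against 4.73 and 5.77 FPKM with the control vector, a log2 change of -1.08. The intervals of its estimates imply 19.0 to 67.0 fragments per library, the fewest of the family, beside 62.6 to 609 for PIR3 and at least 1025 for the other members.

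**Figure D1:**
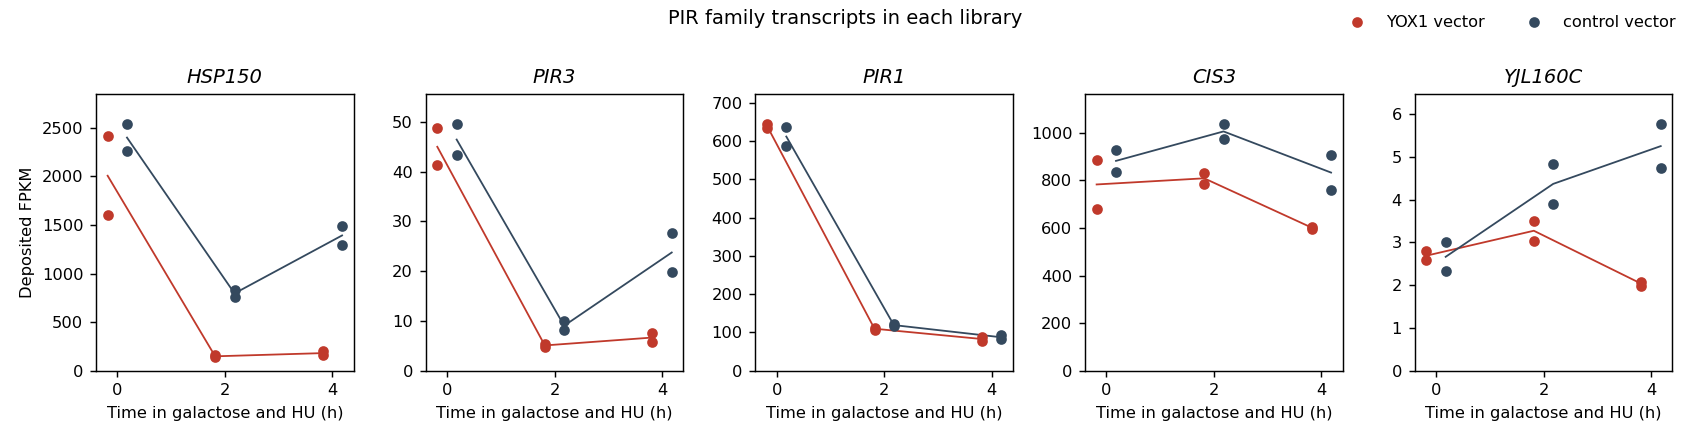
Deposited FPKM (y axis, each panel from 0 on its own scale) of the 5 PIR genes against time in galactose and HU in hours (x axis), with YOX1 vector libraries in red at the left and control vector libraries in dark blue at the right of each time; points are the 2 libraries of a group and lines join their means. At 4 h HSP150 is at 160 and 204 FPKM with the YOX1 vector, under 1297 and 1487 with the control vector, while the PIR1 points of the vectors lie together.

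Over all 6887 genes tested in limma with Benjamini-Hochberg adjustment, 1.68% were called lower and 0.261% higher with the YOX1 vector at 2 h. At 4 h 4.31% of genes were called lower and 1.92% higher. These contrasts were used to choose HSP150, so calls of members in them are not given. Before galactose and HU, a contrast that did not choose the members, 0 of 5 members passed the test. In that contrast 0.0145% of genes were called lower and 0.0145% higher, 531 genes had an unadjusted p under 0.05, and no member was among them. The untreated log2 changes were -0.32 (95% interval -0.81 to 0.16) for HSP150, -0.22 (-0.56 to 0.12) for CIS3, -0.08 (-0.50 to 0.33) for PIR3, 0.03 (-0.16 to 0.21) for PIR1 and -0.01 (-0.47 to 0.44) for YJL160C. Without the first untreated YOX1 vector library the HSP150 value was 0.00062, and without the second it was -0.65.

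The response over time was compared within each vector. All treated libraries had received galactose and HU, and the study's cultures were sampled in sequence, so values of different times may come from the same cultures. PIR1 fell with both vectors to a similar level, PIR3 fell and HSP150 was lower than at 0 h with both vectors, and both stood nearer to their untreated level at 4 h in the control vector libraries, and CIS3 was not called. YJL160C was the only member called higher, with the control vector at 4 h.

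PIR1 fell with both vectors, with log2 changes at 2 h and 4 h of -2.51 and -2.82 for the YOX1 vector and of -2.33 and -2.68 for the control vector. All 4 changes had the same standard error, 0.08, with adjusted p values from 3.1e-07 to 1.2e-06 in limma. In fold terms its level at 4 h was 7.08-fold lower than at 0 h with the YOX1 vector and 6.40-fold lower with the control vector.

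PIR3 fell with the YOX1 vector, with log2 changes of -2.88 at 2 h and -2.48 at 4 h and adjusted p values of 1.9e-05 and 2.1e-05 in limma. With the control vector it fell too, with log2 changes of -2.22 at 2 h (adjusted p 9.0e-05, limma) and -0.84 at 4 h (adjusted p 0.0054). The control vector libraries of 4 h, at 27.6 and 19.9 FPKM, lay above those of 2 h, at 9.98 and 8.15 FPKM, whereas with the YOX1 vector the libraries of 4 h, at 5.84 and 7.52 FPKM, lay only a little above the 4.83 and 5.37 FPKM of 2 h. The change from 2 h to 4 h, and its difference between the vectors, was not tested.

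With the YOX1 vector HSP150 was 12.9-fold lower at 2 h and 10.03-fold lower at 4 h than at 0 h, log2 changes of -3.69 and -3.33. With the control vector it was 2.96-fold lower at 2 h, a log2 change of -1.57, and its log2 change at 4 h was -0.67. The 4 h value was -0.57 or -0.76 when 1 of the untreated control vector libraries was left out, and -0.56 without the first control vector library of 4 h. These changes are given with no test, because HSP150 was chosen on the treated libraries of both vectors.

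CIS3 was not called in any of these contrasts. Its log2 changes were 0.08 (95% interval -0.26 to 0.43) at 2 h and -0.25 (-0.60 to 0.09) at 4 h with the YOX1 vector, and 0.21 (-0.13 to 0.55) and 0.03 (-0.31 to 0.37) with the control vector. The 4 h change with the YOX1 vector turned on the untreated library in which CIS3 and HSP150 were low. Without it the change was -0.48 with an adjusted p of 0.0191 in limma, and without its partner it was -0.034 with 0.845, where the 11 alternatives ranged from 0.0191 to 0.845. With no scaling between libraries the change was -0.37, with an adjusted p of 0.0459 in limma, and was called.

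YJL160C rose with the control vector by 1.82-fold at 4 h, a log2 change of 0.87, with an adjusted p of 0.0069 in limma. At 2 h with the control vector its change of 0.57 had an adjusted p of 0.054 in limma. The adjusted p was under 0.05 with a pseudocount of 0.1, without a filter or without the trend, within 0.0156 to 0.238 over the 11 alternatives. With the YOX1 vector its changes were 0.23 (95% interval -0.23 to 0.68) at 2 h and -0.20 (-0.66 to 0.25) at 4 h, and neither was called. Whether the changes differ between the vectors was not tested, because that difference holds the contrast used for the choice.

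**Figure D2:**
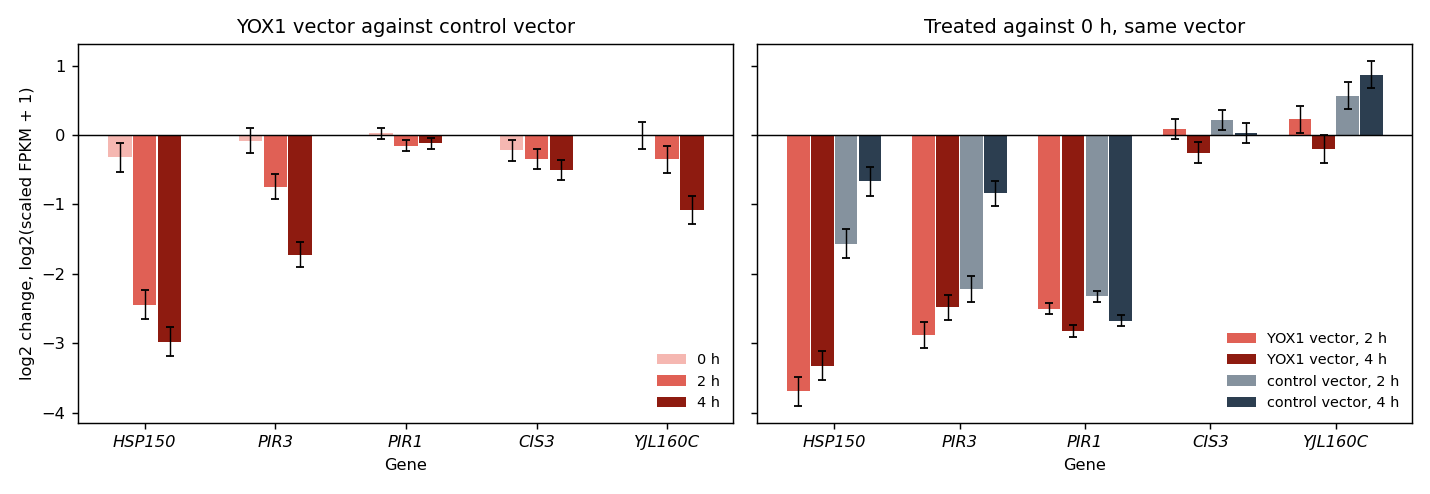
Log2 change (y axis, on the log2(scaled FPKM + 1) scale) of each PIR gene (x axis) with the YOX1 vector relative to the control vector at 0, 2 and 4 h (left), and at 2 h and 4 h relative to 0 h within each vector (right); bars are limma estimates from 2 libraries per group and error bars their standard errors. The 4 h bars at the left run from -0.12 for PIR1 to -2.98 for HSP150, and at the right the PIR1 bars of both vectors lie between -2.33 and -2.82.

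Many genes of the genome changed over time as well, and HSP150 is left out of the counts that follow because of how it was chosen. At 2 h with the YOX1 vector 2 of the other 4 members were called lower, where 22.2% of all genes tested were, and 0 were called higher, where 21.6% were. At 4 h with the YOX1 vector the calls were again 2 lower and 0 higher, beside 27.0% and 26.4% of genes. The control vector gave 2 members lower and 0 higher at 2 h, beside 19.3% and 18.4% of genes. It gave 2 lower and 1 higher at 4 h, beside 26.0% and 25.1% of genes. The members called lower were PIR1 and PIR3 each time. The comparisons at 2 h and 4 h share their untreated libraries within a vector.

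Summed over the family, the PIR signal was lowest in the treated YOX1 vector libraries. HSP150, chosen for its low values in those libraries, made up 59.5% and 59.4% of the sum with the control vector at 4 h. The sum and its shares are therefore a description, and no change of the family as a whole is read from them. In the order 0 h, 2 h and 4 h the sum was 2957 and 3994, 1041 and 1110, and 852 and 897 FPKM with the YOX1 vector. With the control vector it was 4155 and 3725, 1932 and 1935, and 2179 and 2502 FPKM. The vectors did not overlap at either treated time, but did at 0 h.

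The leading gene of the family changed as well. HSP150 was the highest member in untreated cells, with 54.1% and 60.4% of the sum with the YOX1 vector and 61.1% and 60.6% with the control vector. At 2 h CIS3 was the highest member with either vector, with 75.5% and 74.9% of the sum with the YOX1 vector and 50.4% and 53.6% with the control vector. At 4 h CIS3 was still the highest with the YOX1 vector, at 70.1% and 67.5% of the sum, while HSP150 led again with the control vector, at 59.5% and 59.4%. PIR1 followed them, then PIR3 and last YJL160C, in all 12 libraries. No neighbours in that order of levels overlapped within a group of 2 libraries.

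**Figure D3:**
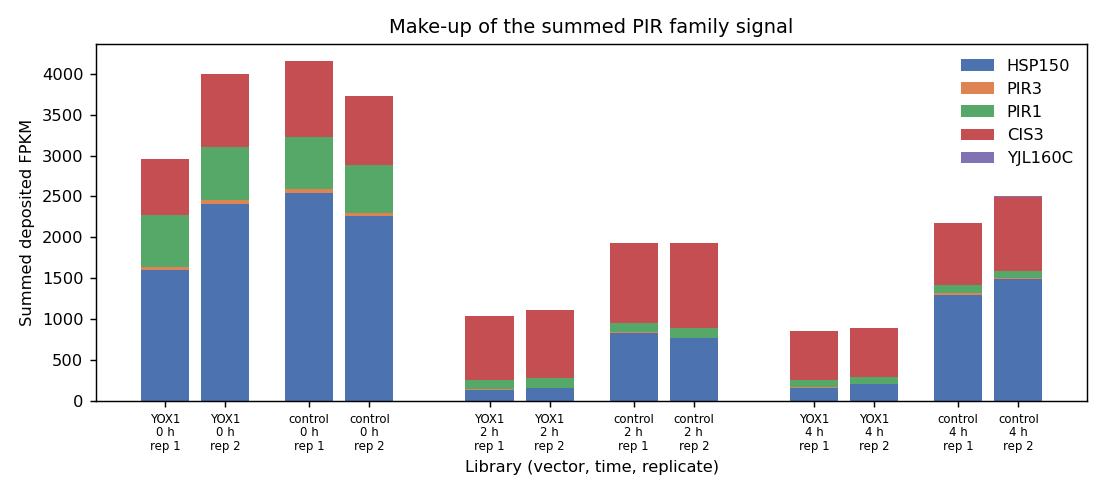
Summed deposited FPKM of the 5 PIR genes (y axis, from 0) in each of the 12 libraries (x axis, by time, with the YOX1 vector libraries left of the control vector libraries), with each colour the part of 1 gene. The sum at 4 h is 852 and 897 FPKM with the YOX1 vector, most of it CIS3, and 2179 and 2502 FPKM with the control vector, most of it HSP150.

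The members with the most similar patterns lie on different chromosomes. As a description over the 12 libraries, which share times and vectors, Pearson's r of log2 values was 0.93 for HSP150 and PIR3, which lie on different chromosomes, and 0.81 for PIR1 and PIR3. It was 0.69 for PIR1 and HSP150, 0.47 for HSP150 and its neighbour CIS3, 0.25 for HSP150 and its neighbour YJL160C, and 0.70 for CIS3 and YJL160C. PIR1 had an r of 0.047 with CIS3 and of -0.40 with YJL160C, whereas PIR3 had 0.17 and -0.0017 with these 2 genes.

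The genes beyond the clusters were read as well. FAR1 (chromosome X, 123836 to 126328), the next gene after CIS3, encodes an inhibitor of the G1 cyclin-dependent kinase. It was called lower with the YOX1 vector, with log2 changes of -0.66 at 2 h and -0.78 at 4 h and adjusted p values of 0.039 and 0.0093 in limma. It rose over 4 h with both vectors. With the YOX1 vector it stood at 85.8 and 68.3 FPKM at 4 h, against 66.0 and 56.9 FPKM at 0 h, and with the control vector at 138 and 120 FPKM at 4 h, against 66.6 and 66.4 FPKM at 0 h. FMP33 (117245 to 117787), on the other side of YJL160C, was not called between the vectors, with log2 changes of -0.40 at 2 h and -0.18 at 4 h. YKL162C-A (chromosome XI, 145922 to 146074), the next gene after PIR3, was not called either, with -0.41 and -0.17. Beyond PIR1 lies tE(UUC)K (141018 to 141089), which was not called, with -0.24 and 3.13 and a standard error of 1.23 each. At 4 h it stood at 8.56 and 6.61 FPKM with the YOX1 vector, against 0 in both control vector libraries.

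Genes whose pattern was most like a member's were ranked by Pearson's r over the 12 libraries among 6102 other genes whose mean FPKM was 10 or more. For HSP150 they were MCM3 (r 0.989), DBF2 (0.988), CDC20 (0.987), NBA1 (0.984) and SWI5 (0.981). MCM3 encodes a subunit of the replicative helicase, DBF2 a kinase of mitotic exit, CDC20 an activator of the anaphase-promoting complex and SWI5 a transcription factor of the M/G1 boundary. DBF2 stood at 6.65 and 6.37 FPKM with the YOX1 vector at 4 h, against 31.9 and 29.0 FPKM with the control vector, and MCM3 at 9.60 and 10.3 FPKM with the YOX1 vector, against 40.5 and 40.1 FPKM with the control vector. The log2 changes at 4 h with the YOX1 vector were -2.11 for DBF2, -1.96 for MCM3, -1.84 for CDC20, -1.31 for SWI5 and -0.48 for NBA1, beside -2.98 for HSP150.

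For PIR3, PST1 (r 0.984), which encodes a cell wall protein with a lipid anchor, was among the genes most alike. PST1 stood at 31.0 and 31.5 FPKM with the YOX1 vector at 4 h, against 76.4 and 66.1 FPKM with the control vector. PIR1 was most like RPL9A (0.994), for a protein of the large ribosomal subunit, and UGP1 (0.993), for UDP-glucose pyrophosphorylase. Neither of these differed much between the vectors at 4 h, with log2 changes of -0.024 and -0.11. CIS3 was most like ABP1 (0.930), for an actin-binding protein, and TIF6 (0.922), for a factor of ribosome assembly, and YJL160C most like ALG14 (0.912), for an enzyme of N-glycosylation, and RTC1 (0.907). These r describe patterns over libraries that share vector and time, and no p is attached to them.

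**Figure D4:**
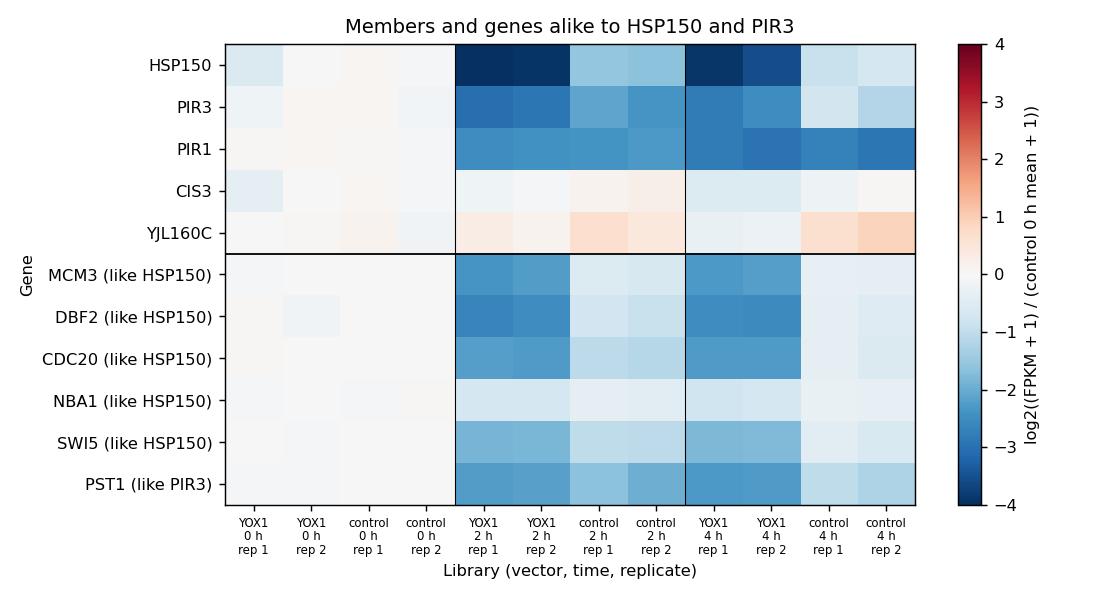
Deposited FPKM of the 5 PIR genes (above the line) and of genes alike to HSP150 or PIR3 (below), as log2 of the value plus 1 over the control vector mean at 0 h plus 1 (colour), in each of the 12 libraries (columns, by time, with the YOX1 vector left of the control vector). HSP150, MCM3, DBF2, CDC20 and SWI5 are palest at 0 h and darkest blue in the treated YOX1 vector libraries, whereas PIR1 is about equally blue with both vectors.

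The known regulators of the family were compared next. SWI5 was called lower with the YOX1 vector, with log2 changes of -0.84 at 2 h and -1.31 at 4 h and adjusted p values of 0.00023 and 8.8e-06 in limma. It stood at 16.4 and 16.7 FPKM with the YOX1 vector at 4 h, against 43.6 and 39.1 FPKM with the control vector. SWI5 is also among the genes most alike to HSP150, which was chosen on these contrasts. The adjusted p values of SWI5 are therefore given only as a description. RLM1, the transcription factor of the cell wall integrity pathway, and SLT2, its kinase, were not called between the vectors at 2 h or 4 h, with log2 changes of -0.13 and -0.18 for RLM1 and of -0.16 and -0.13 for SLT2.

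Of 12 genes of the M/G1 boundary, SWI5 included, 12 fell at both times with either vector. Their median log2 changes at 2 h and 4 h were -1.01 and -1.96 with the YOX1 vector and -1.28 and -1.95 with the control vector, beside medians over all genes between 0 and 0.0075. Of all genes, 19.3% to 27.0% were called lower in these comparisons. Between the vectors the list was divided. At 2 h 2 genes were called lower with the YOX1 vector and 2 higher, with a median of 0.06, beside 1.68% and 0.261% of all genes. At 4 h 3 were lower and 2 higher, with a median of -0.05, beside 4.31% and 1.92% of all genes. ASH1, which encodes a daughter-specific repressor, had log2 changes of -0.75 at 2 h and -1.10 at 4 h between the vectors, with adjusted p values of 0.00037 and 2.1e-05 in limma. Genes named from this list and the lists that follow were picked because they were called between the vectors at 2 h or 4 h. Their adjusted p values are therefore given only as a description.

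Other wall genes were read as 5 further lists, whose counts between the vectors stand beside the shares of all genes given for each time. Of 11 genes for wall proteins with a lipid anchor, 5 were called lower and 1 higher with the YOX1 vector at 4 h, beside 4.31% and 1.92% of all genes, and the median log2 change was -0.69. At 2 h 3 were called lower and 1 higher, beside 1.68% and 0.261% of all genes, with a median of -0.43. In untreated cells the median of this list was -0.17, with none called and 2 at an unadjusted p under 0.05 in limma. CRH1, for an enzyme that joins chitin to glucan, stood at 102 and 116 FPKM with the YOX1 vector at 4 h, against 267 and 269 FPKM with the control vector, a log2 change of -1.34 (adjusted p 6.6e-05, limma). PST1 had a log2 change of -1.20 (adjusted p 0.00041). Of 12 targets of Rlm1 outside the family, 4 were called lower and 1 higher at 2 h, with a median of -0.15, beside 1.68% and 0.261% of all genes. At 4 h the list had 4 lower and 2 higher, with a median of -0.16, beside 4.31% and 1.92% of all genes. In untreated cells its median was already -0.13, with none called and 3 at an unadjusted p under 0.05 in limma. CRH1 and PST1 are on this list too.

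The remaining lists hold genes for glucan, signalling and protein processing. Of 10 genes for beta-glucan synthesis and remodelling, 1 was called lower and 0 higher at 2 h, beside 1.68% and 0.261% of all genes. The median of the list was -0.12. In untreated cells the median of this list was already -0.18. None of its genes was then called, but 6 had an unadjusted p under 0.05 in limma, as had 531 of all 6887 genes. At 4 h 3 were called lower and 1 higher, with a median of -0.11, beside 4.31% and 1.92% of all genes. FKS1, the catalytic subunit of glucan synthase, had a log2 change of -0.52 (adjusted p 0.0008, limma). At 4 h EXG1, for an exoglucanase, had a log2 change of -0.41 (adjusted p 0.019, limma). Of 13 genes of cell wall integrity signalling 0 were called in limma at 2 h or 4 h, with medians of -0.05 and -0.02, and 2 had an unadjusted p under 0.05 at each time. Of 11 genes for O-mannosylation and for the Kex2 protease 1 was called lower at 4 h, beside 4.31% of all genes. It was MNN1, a mannosyltransferase, with a log2 change of -0.58 (adjusted p 0.012, limma). The medians over all genes were -0.00845 in untreated cells, 0.0021 at 2 h and 0.0087 at 4 h.

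The 800 bases before each start codon were searched on both strands for 6 short motifs of known regulators of cell cycle and wall genes, and the share of 5997 upstream regions that hold each motif is given beside it. Windows with up to 10 bases on either side are shown on the coding strand of the gene in sacCer3, with the match in capitals. They are shown for HSP150 and PIR3, the pair with the most similar pattern, and for PIR1, which shares an intergenic interval with PIR3. Only some matches of these genes are shown. PIR1 also held 3 P-box matches and 1 Yox1-type match, and HSP150 held 1 Swi5 match, so the windows do not set PIR1 apart.
HSP150, Mcm1 P-box, chrX:119951-119980: cccccttctgCCCAATTAGGcgaccctcac
HSP150, Yox1-type, chrX:119953-119978: cccttctgccCAATTAggcgaccctc
HSP150, Mcm1 P-box, chrX:120059-120088: cttactatttCCTATTTCGGaaattattaa
HSP150, Rlm1, chrX:120216-120245: acattttgagCTAAATTTAGattttggtca
PIR3, Mcm1 P-box, chrXI:143926-143955: gcgtaagagaCCTTATTCGGaaccgagcaa
PIR3, Rlm1, chrXI:144111-144140: gattagcaaaCTAATTATAGatcaaaggcc
PIR1, Swi5, chrXI:143013-143038: atattagaacGCTGGTatactaatta

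The Mcm1 P-box was searched as CC, any 6 bases and GG. It was found 5 times before HSP150, 3 times each before PIR1 and PIR3, 2 times before CIS3 and once before YJL160C, in a background where 69.7% of upstream regions held it and 14.8% held it 3 times or more. The Yox1-type homeodomain motif TAATTG was found 2 times before CIS3, once each before HSP150, PIR1 and YJL160C and not before PIR3 (47.1% of upstream regions). Its match before HSP150 lies within a P-box match, as the first pair of windows shows. The Rlm1 element was found once each before HSP150 and PIR3 and not before the other 3 members, and 2.63% of upstream regions held it. The Swi5 motif ACCAGC was found 2 times before PIR1 and once before HSP150, at 785 bases from its start codon (23.6%). The stress response element CCCCT was found 4 times before PIR1, 2 times before HSP150 and once before each other member (48.2%), with 1 of the PIR1 matches inside a P-box match. The Swi4-type motif CNCGAAA was found only before YJL160C, once (29.9%). A match is a run of letters and was not tested as a binding site.

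**Figure D5:**
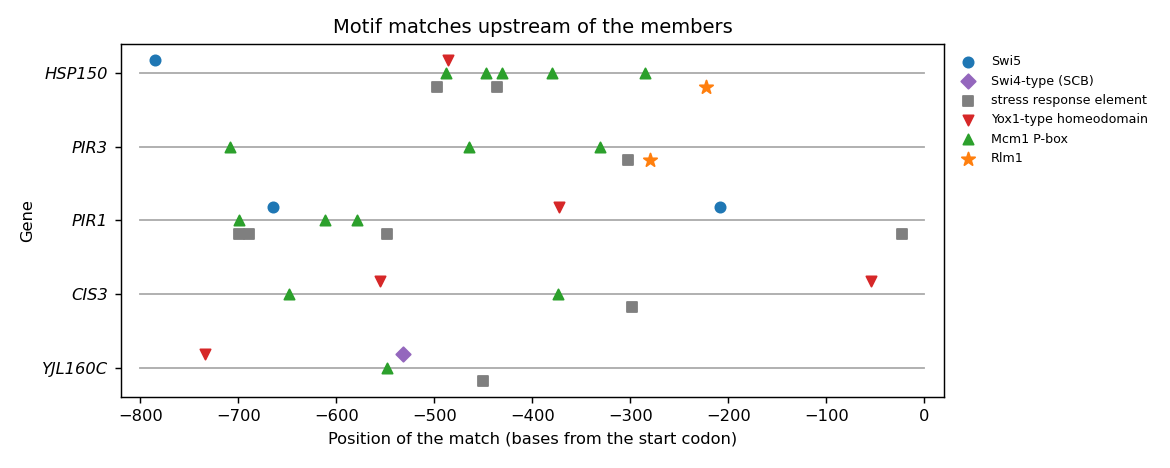
Positions of 6 motifs (markers) in bases before the start codon (x axis, 0 is the start codon) upstream of each PIR gene (y axis), with matches on either strand and small vertical offsets only to keep markers apart. P-box matches stand before all 5 genes, 5 of them before HSP150, and the Rlm1 element only before HSP150 and PIR3.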

How the data were processed

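RNA-seq values of 12 libraries were used as deposited. Per the labels and the study's methods, ribosomal RNA was removed, TruSeq libraries that do not mark strand were read at 50 bases, and the authors aligned the reads to sacCer3 with Tophat2 and quantified them with Cufflinks, Cuffmerge and Cuffdiff at default settings, with versions not given in the sources used here. The authors deposited FPKM with an interval and a status for 7126 genes in each library. The interval was read as 2 SDs on either side to imply fragment numbers, which are approximate. All 5 members had a completed estimate in every library and passed the filter on low values.

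Values were divided by each library's median ratio to the geometric mean over 6585 genes above 0 in all libraries (factors 0.932 to 1.07), 1 was added and log2 taken. Genes whose mean FPKM was 1 or more, 6887 in all, were fitted with limma 3.58.1 in R 4.3.3, with 6 group means, the trend on and all 12 libraries sharing 1 estimate of spread (6 residual and 1.81 prior degrees of freedom). Tests were two-sided, with Benjamini-Hochberg adjustment over all genes in a contrast and calls at an adjusted p under 0.05. The study states that replicates were independent biological ones. A set of 43 genes without a completed estimate in some library was kept at the deposited 0. The model was tested on simulated data. Per-library values and shares are deposited FPKM. Sequences were read from the RefSeq R64 genome, in which 6036 of 6048 genes matched by locus tag had the coordinates of the tables. Proteins were aligned with BLOSUM62 in Biopython 1.88.

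The members and lists were chosen with earlier results of these data known. Named genes were the members, the 5 genes most alike to HSP150 and the 2 most alike to each other member, up to 2 called genes per list with the largest change at 4 h, regulators, and chromosomal neighbours. A gene that this rule names is not reported here and was left out of its list. The alternatives were a pseudocount of 0.1, no filter, no scaling, a replicate block, spread from the compared libraries only, no trend, and each library left out. Leaving out the 43 genes was added after seeing the data.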

Additional observations from a re-analysis of the deposited data

Results flagged for a closer look

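YJL160C libraries of 4 h lay on opposite sides of their untreated libraries with the vectors. In scaled FPKM both YOX1 vector libraries lay under both untreated YOX1 vector libraries, while both control vector libraries lay above both untreated control vector libraries. Only the rise with the control vector was called, and the change with the YOX1 vector was -0.20 (95% interval -0.66 to 0.25). Its change over 4 h with the YOX1 vector was lower than that with the control vector by a log2 difference of -1.07, and this difference was not tested.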

How the results depend on the processing

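All changes over time of PIR1 and PIR3 and the 4 h rise of YJL160C with the control vector kept their call under all 11 alternatives tried for each. The calls over time of CIS3 and YJL160C that depended on a setting stand beside their values in the report. When the spread came from just the libraries of a comparison, the counts of genes called between the vectors changed. There were 10 in place of 2 at 0 h and 46 in place of 134 at 2 h. At 4 h there were 72 in place of 429. The same setting gave 1730 genes in place of 3018 at 2 h against 0 h with the YOX1 vector. With 1 library left out, 2 to 22 genes were called between the vectors at 0 h, the most without the first YOX1 vector library, 72 to 100 at 2 h and 210 to 246 at 4 h. The fits then hold fewer libraries, and the lone library of a group is assumed to vary like the others. With a pseudocount of 0.1 the YJL160C value between the vectors at 4 h was -1.36. With a replicate block 153 genes in place of 134 were called between the vectors at 2 h. No call of a member over time or between the vectors at 0 h changed with this block. The r of deviations of same-numbered libraries was over 0.1 in 5 of 15 pairs of groups and not in the others (-0.125 to 0.418, median -0.0007). These values cannot decide whether libraries with the same number come from 1 culture. The main fit did not pair them.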
